A study of Mus musculus with 12 samples.

Results

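The genes described here are 10 targets of the transcription factor p53, chosen by their role: genes whose products arrest the cell cycle (Cdkn1a, Plk2, Plk3, Btg2, Gadd45a and Sfn) and genes whose products restrain p53 or act back on it (Mdm2, Ppm1d, Ccng1 and Zmat3). They are 10 of the 27179 genes in the table, found by NCBI Gene number, and all 10 passed the filter on low values described below. The rule uses the genes' roles and no measured value.

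RNA was sequenced from whole kidneys of 12 mice, 3 in each of 4 groups, all with an age given as 8 to 12 weeks and a strain background labelled mixed. Wild-type mice received saline or cisplatin, a platinum drug that crosslinks DNA and injures the proximal tubule, at 2 mg/kg by intraperitoneal injection weekly for 5 weeks. The published study gives 8 to 12 weeks as the age at injection. In its repeated low-dose scheme kidneys were collected 5 weeks after the first cisplatin injection. FAN1KO mice, labelled γGT1-Cre;Fan1-/-, received the same saline or cisplatin. In these mice the Ggt1-Cre transgene deletes Fan1, the gene of a nuclease that repairs DNA crosslinks, in proximal tubule cells, so the other cells of the organ keep the gene. The wild-type mice carry neither allele by their label, and whether littermates were used is not given in the sources used here. Values are TPM, a transcript level corrected for gene length and scaled to the same total in every library. Levels can therefore be compared between genes. In whole kidneys, fewer cells of a type and less RNA per cell cannot be told apart.

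p53 is held low in unstressed cells by Mdm2, a ubiquitin ligase that marks it for destruction. After DNA damage, checkpoint kinases stabilise p53, which binds response elements near its target genes and raises their transcription. Some targets, above all Cdkn1a, stop cells from entering or completing division, while Mdm2 and Ppm1d are themselves targets and close a negative feedback loop that limits how long p53 stays active. In the kidney, Cdkn1a is known as an early RNA that rises in tubule cells after cisplatin.

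p53 binds a pair of half-sites, each with a central C, 2 bases of A or T, and a G. The 250 bases before the annotated start were available for 9 members (10 starts, 2 of them of Cdkn1a). Zmat3 has no entry in that table. The p53 half-site consensus, searched on both strands, was found before 5 of these 10 starts, against 2341 of all 32851 starts (7.13%). A pair of half-sites at most 13 bases apart stood before 1 of the 10, against 21 of all 32851 (0.0639%). The stretches that hold these matches are shown because p53 acts on its targets through such sites. In FAN1KO kidneys under cisplatin, Cdkn1a, with the pair, rose by the most of all members (log2 fold change 5.56). Plk2, Btg2 and Plk3, with no match, rose by more than Mdm2, Ccng1, Gadd45a and Ppm1d, which have 1 half-site each. Sfn, with no match, was not called (1.34). Whether a match goes with the size of the rise was not tested. The stretches are from RefSeq on GRCm38.p6, read 5′ to 3′ on the gene's strand, with the half-sites in capitals.
Cdkn1a, chr17:29090881-29090962, plus strand: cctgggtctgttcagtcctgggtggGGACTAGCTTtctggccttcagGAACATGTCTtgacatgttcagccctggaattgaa
Ccng1, chr11:40755437-40755496, minus strand: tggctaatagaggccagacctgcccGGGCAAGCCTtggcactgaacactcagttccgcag
Mdm2, chr10:117710910-117710969, minus strand: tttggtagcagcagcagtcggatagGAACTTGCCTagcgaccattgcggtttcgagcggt
Gadd45a, chr6:67037413-67037472, minus strand: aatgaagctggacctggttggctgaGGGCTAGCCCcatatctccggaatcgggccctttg
Ppm1d, chr11:85311097-85311156, plus strand: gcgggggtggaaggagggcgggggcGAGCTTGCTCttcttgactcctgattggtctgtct
The Cdkn1a pair lies before the upstream of its 2 annotated starts, with the first half-site beginning 73 bases before that start. Only exact matches are in capitals. The 10 bases directly after the second Cdkn1a half-site fail the consensus only at their first base and so are not marked. The stretches before the other Cdkn1a start and before Plk2, Plk3, Btg2 and Sfn hold no match, which says only that these letters are not in this window. For Btg2 alone, the bases shortly after the annotated start were not found in the gene's transcripts, so the position of its window is uncertain.

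The libraries held 37200468 to 82945191 reads assigned to genes, recovered from the steps of the TPM, so that 1 read in a gene of 1 kilobase was worth 0.0200 to 0.0479 TPM. Members had 51 to 31542 reads in a library. Fan1 RNA overlapped between the genotypes under both treatments and so does not check the labels in whole kidneys. One library in each group held RNA of Y-linked genes (replicate 3 of wild-type saline, 1 of FAN1KO saline, 1 of wild-type cisplatin and 3 of FAN1KO cisplatin, with a mean log2(TPM + 1) of 3.46 to 3.93 against at most 0.10 in the other 8), and these libraries stood apart in the members too: 7 of 10 members were lowest there among the wild-type cisplatin kidneys, 10 of 10 among the FAN1KO cisplatin kidneys, and 7 and 6 in the saline groups of wild-type and FAN1KO. This was not particular to the members. In every group the same library also had the lowest median ratio to the average library, taken over the genes above 0 in all libraries. Under saline this ratio was 0.788 in wild-type (0.991 and 1.02 in the others) and 0.752 in FAN1KO (0.951 and 0.991). Under cisplatin it was 0.841 in wild-type (1.08 and 1.09) and 1.09 in FAN1KO (1.24 and 1.38). The labels do not give the sex of single mice. Counts of called members are therefore given with and without these 4 libraries.

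The kidneys were tubule tissue by their defining markers. Summed TPM of 5 proximal tubule genes (Lrp2, Cubn, Slc34a1, Slc5a2 and Slc22a6) was 3430 to 4999 in saline kidneys, 2970 to 4067 in wild-type cisplatin kidneys and 1164 to 2161 in FAN1KO cisplatin kidneys. Slc34a1 made up most of this sum in every library. Between the genotypes under cisplatin, Lrp2, Cubn, Slc34a1 and Slc22a6 were lower in FAN1KO without overlap. Slc5a2 overlapped, at 175, 159 and 212 TPM in FAN1KO and 288, 213 and 194 in wild-type cisplatin kidneys. Markers of injured tubule (Havcr1, Lcn2, Krt20, Vcam1 and Sox9) summed to 7.50 to 68.3 TPM in saline kidneys, 33.8 to 149 in wild-type cisplatin kidneys and 785 to 1165 in FAN1KO cisplatin kidneys. Macrophage markers (Adgre1, Cd68, Csf1r, C1qa and Lyz2) summed to 170 to 412 TPM in FAN1KO cisplatin kidneys. The sum was 62.5 to 203 in wild-type cisplatin kidneys and 42.1 to 106 under saline. These genes did not move alike. Between the genotypes under cisplatin, Cd68 and C1qa were higher in FAN1KO without overlap, while Adgre1, Lyz2 and Csf1r overlapped. Csf1r was at 33.4, 23.7 and 21.9 TPM in FAN1KO and 25.5, 39.4 and 35.5 in wild-type cisplatin kidneys. Globin RNA summed to 5.54 to 72.4 TPM in FAN1KO cisplatin kidneys, against 2300 to 6531 in wild-type cisplatin kidneys. Urothelial markers were low in sum but highest in FAN1KO cisplatin kidneys, at 2.44 to 4.16 TPM. They summed to 0.768 to 2.00 TPM in wild-type cisplatin kidneys and 0.638 to 1.77 under saline, with Upk3a at 0 in 8 of 12 libraries. Marker sums also set the libraries with Y-linked RNA apart. In every group that library had the lowest sum of endothelial and of fibroblast markers and the highest of proximal tubule markers. Endothelial markers (Pecam1, Kdr, Cdh5 and Emcn) summed there to 33.5 and 33.9 TPM in wild-type and FAN1KO saline kidneys. Under cisplatin they summed to 35.0 and 18.2. The part of these shifts in the members' values was not tested. Under median-ratio scaling, where each library is divided by its median ratio to the average library, the median of all genes moved from 0.37 to -0.03 (log2) for cisplatin in FAN1KO and from 0.24 to -0.02 for genotype under cisplatin. The members' median under that scaling is therefore given beside the main one in the comparisons that involve cisplatin, with each member whose call it changes.

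The level of the members under saline set a wide range. In wild-type saline kidneys the order by mean TPM was Ccng1 (90.6 ± 7.55, SD, n = 3), Gadd45a (45.8 ± 8.93), Mdm2 (25.8 ± 6.13), Btg2 (11.1 ± 4.85), Cdkn1a (8.33 ± 1.56), Ppm1d (7.99 ± 0.881), Plk3 (6.95 ± 1.84), Zmat3 (5.34 ± 0.561), Plk2 (4.38 ± 1.28) and Sfn (1.37 ± 0.539). Values of neighbours in that order overlapped from Btg2 to Plk2. Ccng1, Gadd45a, Mdm2 and Sfn were each apart from their neighbours. Under cisplatin in FAN1KO kidneys the order changed: Cdkn1a (398 ± 157) and Ccng1 (303 ± 55.0) led with overlapping values, and Ppm1d (13.2 ± 1.57) was last.

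**Figure D1:**
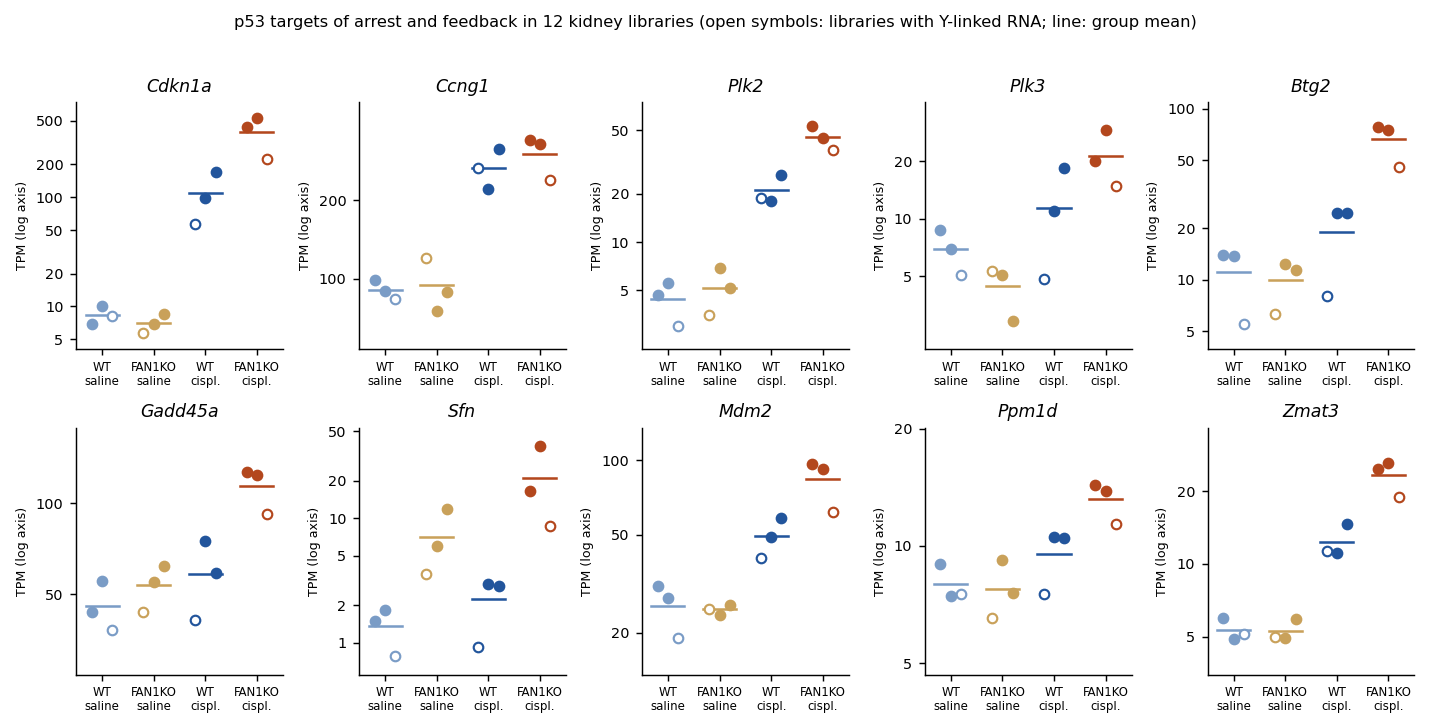
TPM of each of the 10 genes in the 12 kidney libraries on a log axis, by group, with 1 point per mouse and a line at the group mean. Open symbols are the 4 libraries that hold Y-linked RNA. Cdkn1a runs from 5.68 to 528.92 TPM, and in all 10 panels the open symbol is the lowest FAN1KO cisplatin kidney.

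Cisplatin in wild-type kidneys. The first comparison asks how the members respond to cisplatin where Fan1 is intact. Cdkn1a, Ccng1 and Plk2 rose past the test (adjusted p under 0.05 in limma's fit on log2(TPM + 1) over 14972 genes), which is 3 of 10 members against 0.0601% of all genes called higher. All 10 had a fold change above 0, with a median of 0.80 (log2) against 0.08 over all genes tested, and 0.70 under median-ratio scaling. With that scaling Ccng1 lost its call (1.44, adjusted p 0.0966) and Zmat3 gained one (0.98, adjusted p 0.0490). The cisplatin kidneys lay above the saline kidneys with no overlap for 5 members (these 3, Mdm2 and Zmat3), against 5.2% of all genes.

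Cdkn1a (12575; chr17:29090979-29100722) encodes p21, the inhibitor of cyclin-dependent kinases through which p53 stops the cell cycle. Its TPM in wild-type kidneys was 6.88, 9.98 and 8.13 under saline and 56.8, 99.2 and 169 under cisplatin. The lowest cisplatin kidney was several times the highest saline kidney. The means differed 13-fold, and the log2 fold change of TPM + 1 was 3.43 (SE 0.39, adjusted p 0.0222).

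Plk2 (20620; chr13:110395044-110400844) encodes a polo-like kinase with a checkpoint role. It was at 4.64, 5.51 and 2.99 TPM under saline and at 18.8, 18.1 and 26.4 under cisplatin. The groups were far apart, with a log2 change of 2.05 (SE 0.25, adjusted p 0.0222). Ccng1 (12450; chr11:40748552-40755309), the gene of cyclin G1, which recruits a phosphatase to Mdm2, was at 98.4, 90.0 and 83.3 TPM under saline and at 267, 220 and 315 under cisplatin. It was the most abundant member in both wild-type groups and rose by 1.54 (SE 0.20, adjusted p 0.0222).

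Mdm2 (17246; chr10:117688875-117710758) and Zmat3 (22401; chr3:32334792-32365665), the gene of an RNA-binding zinc finger protein that p53 induces, did not pass the test. Mdm2 was at 30.9, 27.6 and 19.0 TPM under saline and at 40.3, 49.1 and 58.7 under cisplatin, with a log2 fold change of 0.92 (95% interval 0.45 to 1.39, adjusted p 0.426). Zmat3 was at 5.97, 4.90 and 5.15 TPM against 11.3, 11.2 and 14.7, with a log2 fold change of 1.07 (95% interval 0.72 to 1.42, adjusted p 0.0583). Zmat3 was past the threshold with a pseudocount of 0.1 (1.19) and by voom on the recovered reads (1.17), over a range of adjusted p from 0.00599 to 0.477. For the other 5 members the groups overlapped, with log2 fold changes from 0.22 for Ppm1d to 0.68 for Btg2 and an adjusted p of 1.00 each.

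The 3 wild-type calls depended on all but 1 of the 6 libraries compared. Leaving out any of wild-type saline 1, 2 or 3 or of wild-type cisplatin 2 or 3 left 0 members called (adjusted p up to 0.107 for Cdkn1a, 0.155 for Ccng1 and 0.131 for Plk2), with log2 fold changes still 3.04 or more for Cdkn1a. Without the 4 libraries with Y-linked RNA, 6 members were called: these 3, Btg2 at 0.78, Mdm2 at 0.86 and Zmat3 at 1.10. Over all genes 60 of 14972 were called higher in that fit, against 9 with all libraries.

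Cisplatin in FAN1KO kidneys. The same treatment was then compared with saline in kidneys without Fan1 in the proximal tubule. Of the 10 members, 9 rose, against 34.9% of all genes called higher and 4.9% called lower. For the same 9 the groups did not overlap, against 47.4% of all genes. The members' median was 1.81 (log2), against 0.37 over all genes. Under median-ratio scaling it was 1.36 with 8 called, Ppm1d at 0.27 losing its call, and the background there was 2157 genes higher and 2101 lower in place of 5229 and 733.

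Among the arrest genes, Cdkn1a stood at 5.68, 6.92 and 8.53 TPM in FAN1KO saline kidneys and at 442, 529 and 224 in FAN1KO cisplatin kidneys. This was the member with the widest gap, 56.6-fold by the means (log2 fold change 5.56, SE 0.39, adjusted p 3.42e-05). Plk2 went from 3.47, 6.87 and 5.17 TPM to 53.4, 45.0 and 37.4, a rise of 2.93 (SE 0.25, adjusted p 6.69e-05). Its lowest cisplatin value was above every other value of Plk2 in the 12 libraries outside that group.

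Btg2 (12227; chr1:134074865-134079155) encodes an antiproliferative protein that binds the deadenylase that shortens mRNA tails. It was at 6.29, 12.3 and 11.4 TPM under saline and at 77.7, 75.4 and 45.8 under cisplatin. The log2 fold change was 2.63 (SE 0.46, adjusted p 0.00186). Plk3 (12795; chr4:117128655-117133963), a stress-responsive polo-like kinase, was at 5.34, 5.08 and 2.91 TPM against 20.1, 29.1 and 14.9, a rise of 2.02 (SE 0.41, adjusted p 0.00359). Reads of Plk3 that fall where Tctex1d4 overlaps it on the other strand are uncertain.

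Gadd45a (13197; chr6:67035096-67037407), whose product blocks Cdk1 at the entry to mitosis, was at 43.7, 54.8 and 62.2 TPM under saline and at 127, 124 and 92.1 under cisplatin. It had the second highest level of any member under saline and a smaller change than the other arrest genes that were called, 1.08 (SE 0.23, adjusted p 0.00491). The antisense gene E230016M11Rik overlaps it, so its reads and those of Gadd45a cannot be fully told apart.

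Sfn (55948; chr4:133600556-133602168) encodes 14-3-3 sigma, an epithelial protein that holds Cdk1 with its cyclin outside the nucleus. It was the member not called, at 3.55, 6.05 and 11.8 TPM under saline and at 16.7, 38.1 and 8.70 under cisplatin. The lowest cisplatin kidney lay below the highest saline kidney, and the log2 fold change was 1.34 (95% interval 0.20 to 2.49, adjusted p 0.0613). It passed the test without FAN1KO saline 3 (1.74), without FAN1KO cisplatin 3 (1.82) and without the 4 libraries with Y-linked RNA (1.47).

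The 4 feedback genes all rose. Mdm2 was at 25, 23.7 and 26.1 TPM in saline kidneys and at 97.0, 92.5 and 62.0 in cisplatin kidneys (log2 fold change 1.68, SE 0.21, adjusted p 0.000387). Ppm1d (53892; chr11:85311254-85347071), the gene of the Wip1 phosphatase that reverses p53 phosphorylation, moved from 6.54, 9.20 and 7.57 TPM to 14.4, 13.8 and 11.4. This was the smallest change among the called members, 0.70 (SE 0.17, adjusted p 0.00901).

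Ccng1 was at 120, 75.0 and 89.2 TPM under saline and at 340, 329 and 240 under cisplatin, a rise of 1.68 (SE 0.20, adjusted p 0.000271), the same size as that of Mdm2. Zmat3 was at 5.02, 4.95 and 5.92 TPM against 24.7, 26.1 and 18.8, a rise of 1.93 (SE 0.16, adjusted p 5.23e-05). Between 9 and 10 members were called when each of the 6 libraries was left out in turn, and 10 were called without the 4 libraries with Y-linked RNA. In that last fit 6647 of 14972 genes were called higher, against 5229 with all libraries.

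FAN1KO cisplatin 3, the library with Y-linked RNA, was the lowest of its group for all 10 members. Its median ratio to the average library was also the lowest of the group (1.09 against 1.24 and 1.38). In the single pair of libraries with Y-linked RNA, the members' median cisplatin difference in FAN1KO was 1.30 (log2), against 2.03 in the libraries without it, and in wild-type it was 0.74 against 0.82. A term for Y-linked RNA by cisplatin was -0.94 (SE 0.30, adjusted p 0.594) for Cdkn1a. No gene passed in that test by limma (0 of 14972, with 463 lower and 687 higher at an unadjusted p under 0.05).

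**Figure D2:**
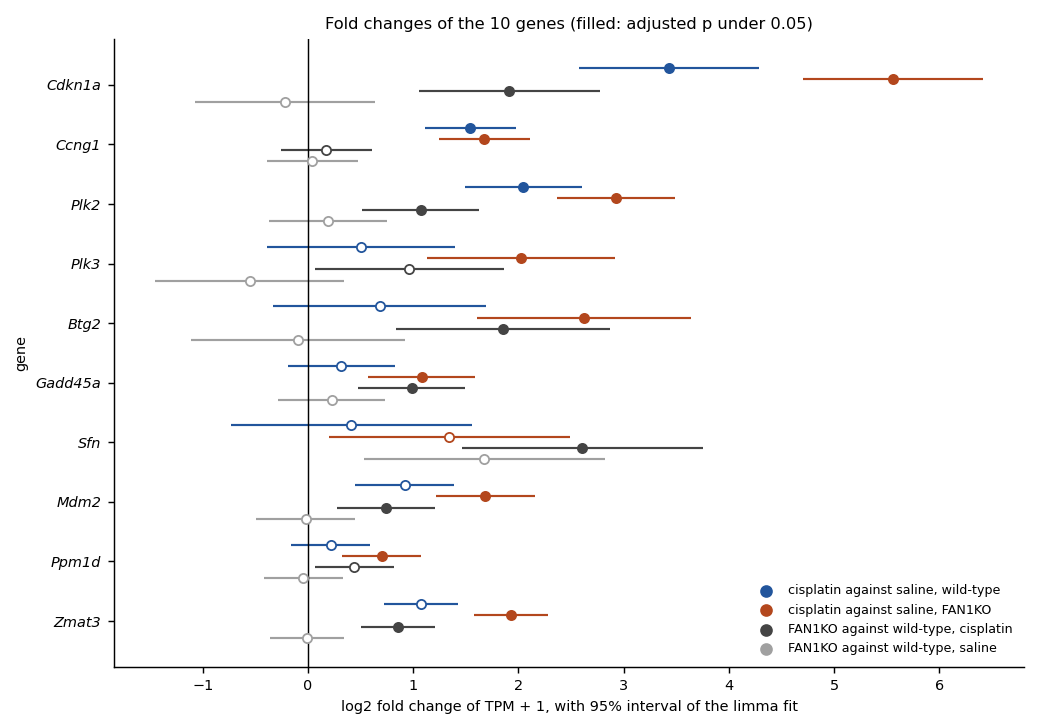
Log2 fold change of TPM + 1 for each of the 10 genes in 4 comparisons, with the 95% interval of limma's fit. Filled points passed an adjusted p of 0.05: 3 for cisplatin in wild-type, 9 for cisplatin in FAN1KO, 7 for genotype under cisplatin and 0 for genotype under saline.

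Genotype under saline. No member passed the test between FAN1KO and wild-type kidneys that received saline (0 of 10 by limma, with 1 at an unadjusted p under 0.05, 0 by voom on the recovered reads and 1, Sfn, with a Y-linked covariate), against 0.768% of all genes called in either direction. The members' median was -0.02 (log2). Mdm2, Ppm1d, Zmat3 and Ccng1 had log2 fold changes between -0.04 and 0.04, with 95% intervals reaching from -0.49 to 0.47.

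Sfn was the exception in size. All 3 FAN1KO saline kidneys (3.55, 6.05 and 11.8 TPM) lay above all 3 wild-type saline kidneys (1.49, 1.84 and 0.78 TPM), as was the case in one direction or the other for 12.5% of all genes. The means differed 5.21-fold, with a log2 change of 1.68 (SE 0.52, adjusted p 0.291, range over alternatives 0.0154 to 0.700). Without the 4 libraries with Y-linked RNA, Sfn was at 1.84 (adjusted p 0.0756) and 0 members were called. The exact two-sided permutation test gave p = 0.1, the smallest that 3 against 3 allows. Sfn had 63 to 77 reads in wild-type saline libraries and 167 to 477 in FAN1KO saline libraries.

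Genotype under cisplatin. FAN1KO and wild-type kidneys were next compared after the same cisplatin course. In FAN1KO kidneys 7 of 10 members were higher, against 19.6% of all genes called higher and 4.37% called lower. With no overlap between groups 8 members were higher, against 35.7% of all genes. The members' median was 0.98 (log2) against 0.24 over all genes, and 0.68 under median-ratio scaling.

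Sfn differed most, at 16.7, 38.1 and 8.70 TPM in FAN1KO and 0.935, 2.95 and 2.88 TPM in wild-type cisplatin kidneys (log2 fold change 2.61, SE 0.52, adjusted p 0.00656). Its lowest FAN1KO value was above its highest wild-type value. Its genotypes did not overlap under saline either (log2 fold change 1.68, limma adjusted p 0.291). Cdkn1a came next under cisplatin at 1.92 (SE 0.39, adjusted p 0.00700), with every FAN1KO kidney (224 TPM or more) above every wild-type kidney (169 TPM or less). Btg2, at 8.07, 24.7 and 24.6 TPM in wild-type cisplatin kidneys, was higher in FAN1KO by 1.85 (SE 0.46, adjusted p 0.0171).

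Plk2 was higher by 1.07 (SE 0.25, adjusted p 0.0138) and Gadd45a by 0.99 (SE 0.23, adjusted p 0.0132), the latter from 41.0, 75.1 and 58.8 TPM in wild-type cisplatin kidneys. Of the feedback genes, Zmat3 was higher by 0.85 (SE 0.16, adjusted p 0.00500) and Mdm2 by 0.74 (SE 0.21, adjusted p 0.0305). Mdm2 lost its call under median-ratio scaling (0.44, adjusted p 0.0717), with only the 6 cisplatin libraries fitted (adjusted p 0.0622) and without the mitochondrially encoded genes (0.64, adjusted p 0.0573). In each of these 7 members all 3 FAN1KO kidneys lay above all 3 wild-type kidneys.

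For Ccng1 the genotypes overlapped under cisplatin, with 267, 220 and 315 TPM in wild-type and 340, 329 and 240 in FAN1KO kidneys. The log2 fold change was 0.18 (95% interval -0.26 to 0.61, adjusted p 0.543), and it was -0.13 under median-ratio scaling. Ppm1d, at 7.54, 10.6 and 10.5 TPM in wild-type cisplatin kidneys, did not overlap with FAN1KO but missed the threshold at 0.44 (95% interval 0.06 to 0.81, adjusted p 0.0850). Plk3 overlapped, at 4.85, 11.0 and 18.4 TPM in wild-type and 20.1, 29.1 and 14.9 in FAN1KO kidneys, with 0.96 (95% interval 0.07 to 1.86, adjusted p 0.108).

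Cdkn1a, Sfn and Zmat3 stayed past the threshold whichever of the 6 cisplatin libraries was left out. Without FAN1KO cisplatin 1 they were the 3 members called, without FAN1KO cisplatin 2 there were 4 and without wild-type cisplatin 1 there were 4. Mdm2 also lost its call without wild-type cisplatin 2. The same 7 members were called without the 4 libraries with Y-linked RNA, where 4328 of 14972 genes were called higher, against 2931 with all libraries.

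Difference between genotypes in the response. Whether cisplatin changed a member more in FAN1KO than in wild-type was tested as a genotype by cisplatin interaction. Cdkn1a (2.13 on the log2 scale, SE 0.55, adjusted p 0.0472) and Zmat3 (0.86, SE 0.23, adjusted p 0.0491) passed, 2 of 10 members against 5.22% of all genes called higher. All 10 estimates were above 0, with a median of 0.87 against 0.28 over all genes and 0.53 under median-ratio scaling. They ranged from 0.14 for Ccng1 (95% interval -0.48 to 0.75) to Cdkn1a, with Btg2 at 1.94 (SE 0.65, adjusted p 0.0970), Plk3 at 1.52 (SE 0.57, adjusted p 0.132) and Plk2 at 0.88 (SE 0.36, adjusted p 0.155) between them. Sfn, with the largest genotype difference under cisplatin, was at 0.93 (95% interval -0.69 to 2.55, limma adjusted p 0.460).

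Both calls were close to the threshold. Under median-ratio scaling neither passed (Cdkn1a at 1.78, adjusted p 0.0643, and Zmat3 at 0.52, adjusted p 0.200). They were lost when any of 10 of the 12 libraries was left out (not wild-type cisplatin 3 or FAN1KO cisplatin 3), with adjusted p up to 0.123 for Cdkn1a and 0.127 for Zmat3. Over all 14972 genes, 782 were called higher with all libraries and 2004 without the 4 libraries with Y-linked RNA. In that second fit 5 members were called: Cdkn1a at 1.99, Btg2 at 1.81, Plk3 at 1.58, Mdm2 at 1.03 and Zmat3 at 0.93. Ccng1 was at 0.54 in that fit and -0.23 under median-ratio scaling, and did not pass in either.

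**Figure D3:**
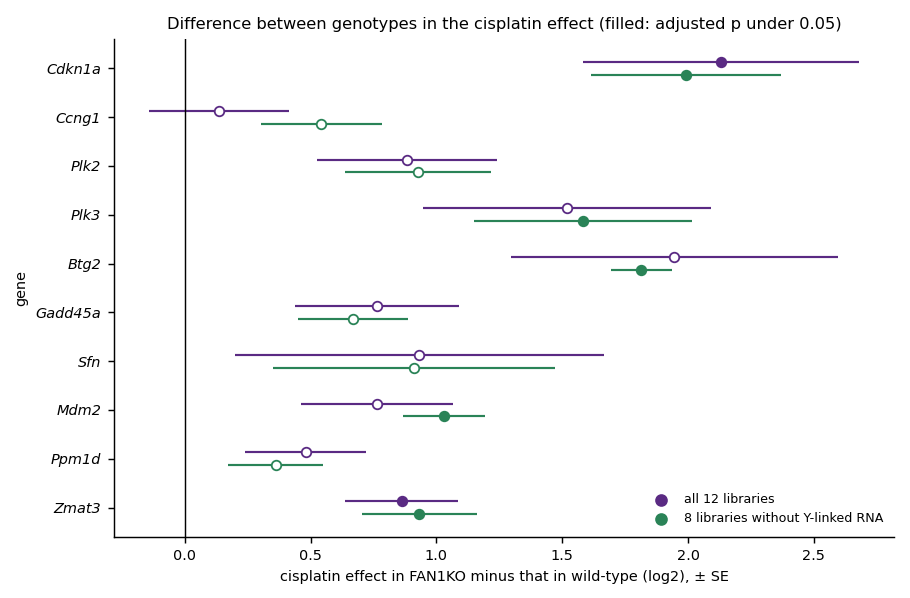
Cisplatin effect in FAN1KO minus that in wild-type kidneys (log2, ± SE) for each of the 10 genes, with all 12 libraries and with the 8 that hold no Y-linked RNA. Filled points passed an adjusted p of 0.05: 2 with all libraries and 5 without those with Y-linked RNA. Cdkn1a and Btg2 lie farthest to the right in both fits, and Ccng1 is at 0.14 and 0.54.

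The members moved together to different degrees. Over the 12 libraries the 45 pairs of members had Pearson correlations of log2(TPM + 1) from 0.39 (Ccng1 with Sfn) to 0.99 (Cdkn1a with Zmat3), median 0.87. These points share the treatment groups. For deviations from the group means the correlations ran from -0.10 to 0.88, median 0.62, with 43 of 45 above 0. Btg2 with Gadd45a was highest at 0.88, and Ccng1 with Gadd45a was lowest. The libraries with Y-linked RNA, in which most members were lowest, are among these deviations.

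Of 14971 other genes, Phlda3, an inhibitor of Akt signalling, was the most like Cdkn1a over the 12 libraries (r 0.995, Spearman rho 0.972), followed by Inka2 (0.994 and 0.909), Psrc1 (0.988 and 0.937), the member Zmat3 (0.987 and 0.832), Eda2r (0.987 and 0.979), 1700007K13Rik (0.987 and 0.937), Ces2e (0.987 and 0.853) and Ddias (0.984 and 0.860). Phlda3 was at 37.9, 64.6 and 106 TPM in wild-type cisplatin kidneys and at 248, 241 and 160 in FAN1KO cisplatin kidneys. The order of the cisplatin libraries was that of Cdkn1a within wild-type and differed from it within FAN1KO. Of the other members, Plk2 ranked 14 by r, Mdm2 23 and Ccng1 59, while Btg2 (701), Ppm1d (854), Plk3 (880), Gadd45a (2152) and Sfn (7201) were far from the head of the list. All of these values share libraries and groups and carry no test.

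**Figure D4:**
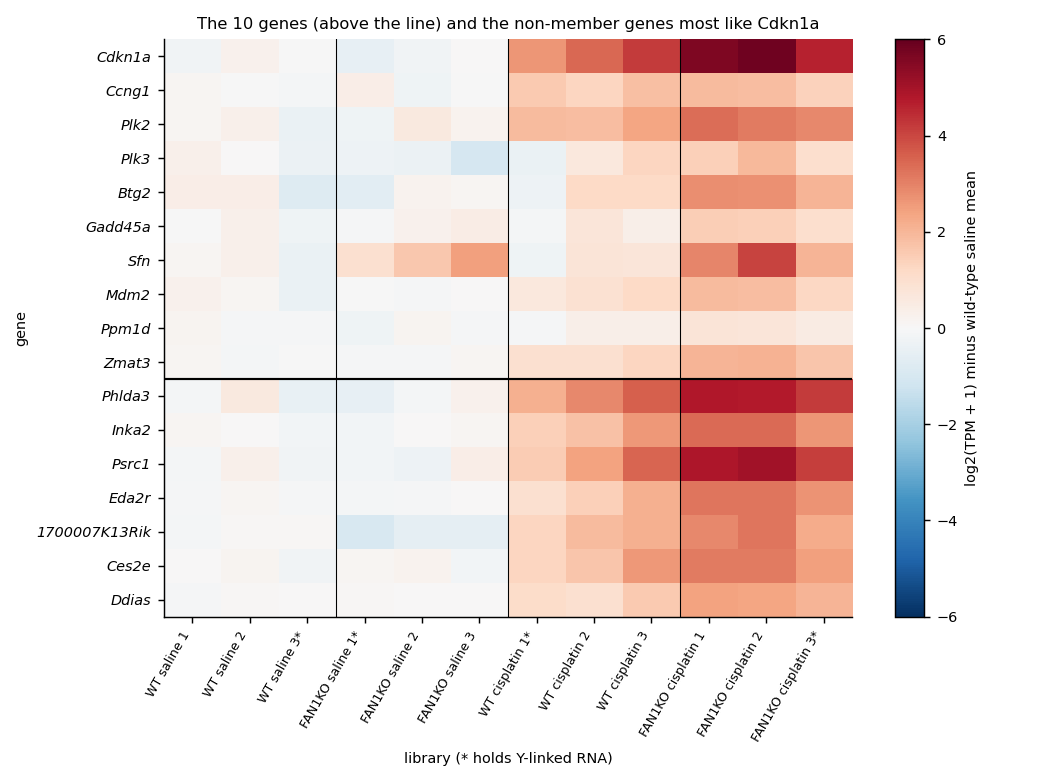
Log2(TPM + 1) minus the wild-type saline mean, by gene (rows) and library (columns, an asterisk marking Y-linked RNA), for the 10 genes above the line and the 7 genes most like Cdkn1a that are not among them below it. Red is higher. Cdkn1a, Phlda3 and Psrc1 have the deepest red in the FAN1KO cisplatin columns.

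The wider p53 network was read from lists of known genes. Trp53, the p53 gene itself, was at 25.6, 24.8 and 26.6 TPM in wild-type kidneys under saline and at 30.3, 38.3 and 31.0 under cisplatin. In FAN1KO kidneys it was at 17.0, 23.2 and 20.4 TPM under saline and at 65.5, 54.5 and 50.3 under cisplatin. Its RNA rose with cisplatin in FAN1KO by 1.45 (SE 0.14, adjusted p 0.000127) and was higher in FAN1KO than in wild-type under cisplatin by 0.76 (SE 0.14, adjusted p 0.00505). In wild-type the change was 0.35 (adjusted p 1.00), and the interaction passed at 1.09 (SE 0.20, adjusted p 0.0162). Mdm4, the partner of Mdm2 that blocks p53 without destroying it, was not called in any of the 5 comparisons, with 7.11 to 9.52 TPM as group means and 0.38 (adjusted p 0.259) for cisplatin in FAN1KO.

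Of 11 tested genes of p53 and its regulators (14 in the table), 0 were called for cisplatin in wild-type (1 at an unadjusted p under 0.05, 0 by voom), 4 rose in FAN1KO and 4 were higher in FAN1KO than in wild-type under cisplatin, with 0 lower. These shares lie beside 34.9% and 19.6% of all genes, and the list's medians were 0.38 and 0.35 (log2) against 0.37 and 0.24 over all genes, or -0.03 and 0.06 under median-ratio scaling. The checkpoint kinase gene Chek1 rose in FAN1KO by 0.92, from 0.308 to 1.5 TPM as means. Chek2 was higher by genotype under cisplatin by 1.05 (2.42 against 6.00 TPM). Its saline kidneys did not overlap between genotypes either (1.93 against 3.96 TPM as means, log2 fold change 0.76, adjusted p 0.125). The acetyltransferase gene Kat5 rose with cisplatin in FAN1KO by 0.66.

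All 12 p53 targets of apoptosis were tested. With 0 lower in any of these comparisons, 2 rose with cisplatin in wild-type (Phlda3 by 2.88 and the nuclease gene Aen by 1.41), 12 rose in FAN1KO and 8 were higher by genotype under cisplatin. Bbc3, the gene of the BH3-only protein Puma, rose in FAN1KO by 3.52, from 3.03 to 45.7 TPM, and Eda2r, a death receptor gene, by 3.12. Trp53inp1 rose by 2.33 there. The median log2 fold changes of this list were 0.95, 1.86 and 0.95 in the 3 comparisons, beside 0.80, 1.81 and 0.98 for the members. Over all genes they were 0.08, 0.37 and 0.24, with 0.0601%, 34.9% and 19.6% called higher. Under median-ratio scaling this list's medians were 0.86, 1.44 and 0.66.

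Of 10 p53 targets of repair, metabolism and secretion, 2 rose in wild-type, 7 rose in FAN1KO and 4 were higher by genotype under cisplatin. These counts lie beside 0.0601%, 34.9% and 19.6% of all genes called higher. The list's medians were 0.42, 0.88 and 0.35 (log2) against 0.08, 0.37 and 0.24 over all genes. Under median-ratio scaling the list's medians were 0.34, 0.47 and 0.08. Gdf15, a secreted stress cytokine gene, rose by 2.11 in wild-type (12.4 to 58.1 TPM) and by 4.37 in FAN1KO (10.0 to 226 TPM). Ddit4, an inhibitor of mTORC1, rose by 2.32 in FAN1KO, Polk, a translesion polymerase gene, by 1.23, and Rps27l by 1.22. Sesn2, a stress-induced inhibitor of mTORC1, rose in both genotypes, by 1.24 and 0.90, and differed by -0.07 (adjusted p 0.764) between them under cisplatin.

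Cyclins, CDKs and other genes of cell division, some of which the arrest proteins act on, were also read. Of 17 tested cyclins, CDKs and partners (19 in the table), 0 were called for cisplatin in wild-type (0 at an unadjusted p under 0.05, 0 by voom), while 13 rose in FAN1KO and 11 were higher by genotype under cisplatin. For FAN1KO and for genotype, 34.9% and 19.6% of all genes were called higher. The list's medians there were 0.94 and 0.79 (log2) against 0.37 and 0.24 over all genes, or 0.50 and 0.53 under median-ratio scaling. Levels differed widely within the list, with Cdk4 at 181, 167 and 153 TPM in FAN1KO cisplatin kidneys. The genes named for the largest changes had low levels. Ccnb2 had means of 1.44 and 7.85 TPM in FAN1KO saline and cisplatin kidneys (1.87) and Top2a 0.797 and 5.11 TPM (1.77). Cdk1 had 0.656 and 4.52 TPM (1.76) and Ccne1 0.357 and 2.65 TPM (1.42). RNA of these division genes rose in the same comparison as that of Cdkn1a. Whether it rose in the same cells cannot be read from whole kidneys.

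Of the 5 other CDK inhibitors tested, 0 were called with cisplatin in wild-type (0 at an unadjusted p under 0.05, 0 by voom) and 3 rose in FAN1KO: Cdkn2b by 2.65 (0.855 to 10.9 TPM), Cdkn2c by 1.00 (11.6 to 23.9 TPM) and Cdkn2d by 0.60. For cisplatin in FAN1KO 34.9% of all genes were called higher. The list's median there was 0.60 (log2) against 0.37 over all genes, or 0.16 under median-ratio scaling. Cdkn2b, the p15 gene, was higher by genotype under cisplatin by 2.12. Cdkn2c was lower in FAN1KO than in wild-type under saline by -0.86 (adjusted p 0.0440), with 23.9 against 21.6 TPM under cisplatin. By voom 0 of these 5 genes were called under saline and 2 for cisplatin in FAN1KO.

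Relatives of the members by gene family gave 0 of 23 called for cisplatin in wild-type (0 at an unadjusted p under 0.05, 0 by voom), 17 higher in FAN1KO and 9 higher by genotype under cisplatin, with medians of 0.11, 0.65 and 0.40 (log2), below those of the members. Under median-ratio scaling these medians were 0.00, 0.19 and 0.13. Over all genes the medians were 0.08, 0.37 and 0.24 in the main fit, with 0.0601%, 34.9% and 19.6% called higher. Gadd45b rose in FAN1KO by 2.92 (5.23 to 44.6 TPM), more than Gadd45a, and Gadd45g by 1.27 (71.1 to 162 TPM). Btg1 rose by 1.76, and Plk1, the mitotic polo-like kinase, by 1.49 (0.876 to 4.21 TPM).

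**Figure D5:**
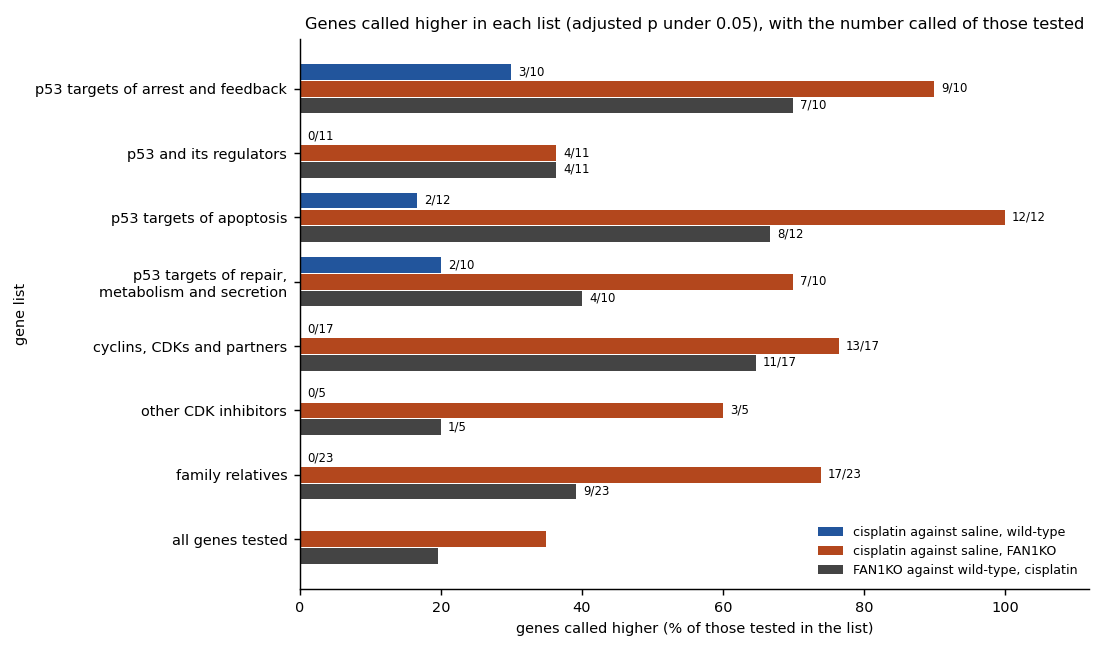
Percent of the tested genes in each list called higher (adjusted p under 0.05) for cisplatin in wild-type, cisplatin in FAN1KO and genotype under cisplatin, with the counts at the bars and all genes tested at the bottom (0.0601%, 34.9% and 19.6%). The p53 target lists of arrest and of apoptosis have 9 of 10 and 12 of 12 called for cisplatin in FAN1KO.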

How the data were processed

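The 12 whole-kidney libraries were deposited as 1 TPM table of 27179 genes, which sums to 1000000 per library and holds 0 other columns of sample values. The submitters' processing notes name mm10 and limma; the aligner, counter and annotation are not given in the sources used here, nor whether strand was used. Reads were paired-end HiSeq reads of total RNA. Gene names came from the RefSeq table of GRCm38.p6, which names 25275 of the 27179 identifiers.

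Tested were the 14972 genes that reached a TPM of 1 in 3 or more of the 12 libraries. The 4 group means of log2(TPM + 1) were fitted with limma 3.58.1 (R 4.3.3), with empirical Bayes moderation, a mean-variance trend and Benjamini-Hochberg adjustment over all genes, threshold 0.05. Fold changes on this scale understate the change of low genes. Single genes were also compared by exact permutation of 3 against 3. The labels name separate mice.

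Whole reads were recovered from the TPM: 232967 of 232991 values above 0 (99.99%) were whole to within 0.001 reads for a whole gene length. They served for depth and for limma's voom. Low-value precision follows from that depth.

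The members and lists were chosen with earlier results of these data known, and the lists carry no test. Named were all members, Trp53 and Mdm4, in each list up to 4 called genes with the largest change for cisplatin in FAN1KO or genotype under cisplatin and all called for cisplatin in wild-type, and the 8 genes most correlated with Cdkn1a. Alternatives were a pseudocount of 0.1, no filter, only the 6 libraries compared, scaling by the median ratio, TPM without the mitochondrially encoded genes, the replicate number as block, a Y-linked covariate, no trend, an added fold of 2, voom, and each library left out. Leaving out the 4 libraries with Y-linked RNA and a term for Y-linked RNA by cisplatin were alternatives chosen after seeing the data. The recovery of reads and the limma fit for genotype under cisplatin were tested on simulated data. Python 3.11.15, numpy 2.4.6, pandas 2.3.3, scipy 1.17.1 and matplotlib 3.10.9 were used.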

Additional observations from a re-analysis of the deposited data

Results flagged for a closer look

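Cdkn1a and Zmat3 are listed because their cisplatin effect differed between the genotypes in the interaction test. For Cdkn1a the effect was 5.56 (log2) in FAN1KO and 3.43 in wild-type kidneys, a difference of 2.13 (SE 0.55, limma adjusted p 0.0472, range over alternatives 0.00336 to 0.123). For Zmat3 it was 1.93 and 1.07, a difference of 0.86 (SE 0.23, adjusted p 0.0491, range 0.00653 to 0.20). In both genes all 3 cisplatin kidneys of each genotype lay above all 3 saline kidneys of that genotype.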

How the results depend on the processing

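Over the alternatives, the 21 called member values kept their sign in 367 of 367 refits and stayed past the threshold in 292. Cisplatin in FAN1KO was the firmest count, 9 to 10 members whichever library was left out. For cisplatin in wild-type, 3 members became 0 with only the 6 libraries of the comparison, 0 with the replicate block, 4 with a pseudocount of 0.1, TPM without mitochondrially encoded genes, no trend or voom (Zmat3 added in each), 5 with the Y-linked covariate, 6 without the libraries with Y-linked RNA and 0 to 4 with 1 library left out. Under median-ratio scaling it stayed 3, with Zmat3 in place of Ccng1. Under saline, 0 members became 1 with the Y-linked covariate. For genotype under cisplatin, 7 became 4 with an added fold of 2, 6 with median-ratio scaling, only the 6 libraries or TPM without mitochondrially encoded genes (Mdm2 lost in each), 9 with the Y-linked covariate (Plk3 and Ppm1d added) and 3 to 8 with 1 library left out. For the interaction, 2 became 0 with a pseudocount of 0.1, no filter, median-ratio scaling, TPM without mitochondrially encoded genes, the replicate block or no trend, 1 with an added fold of 2 or voom, 8 with the Y-linked covariate, 5 without the libraries with Y-linked RNA and 0 to 2 with 1 library left out. Counts over all genes called higher rose in the Y-linked fits as well. For the interaction they were 782 in the main fit, 4088 with the covariate and 2004 without those libraries. In the same order they were 9, 57 and 60 for cisplatin in wild-type and 5229, 7919 and 6647 in FAN1KO. For genotype they were 2931, 6035 and 4328 under cisplatin and 51, 173 and 117 under saline. An added fold removes calls by construction, and the other causes were not tested.

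Signs turned only for values that were not called, 24 of 900. Under median-ratio scaling these were Ccng1 at -0.13 (genotype under cisplatin) and -0.23 (interaction) and, under saline, Mdm2 at 0.033, Ppm1d at 0.0053 and Zmat3 at 0.038. Without the libraries with Y-linked RNA, under saline, they were Ccng1 at -0.20, Ppm1d at 0.026 and Zmat3 at 0.0016. With 1 library left out, under saline, Ccng1 ran from -0.14 to 0.19, Plk2 from -0.012 to 0.40, Btg2 from -0.49 to 0.18, Mdm2 from -0.22 to 0.12, Ppm1d from -0.16 to 0.060 and Zmat3 from -0.079 to 0.061, and the Ccng1 interaction from -0.017 to 0.32.

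Same-numbered libraries are different mice, and deviations of same-numbered libraries from their group means correlated at -0.61 to 0.60 over the 4 pairs of groups compared. In the other 2 pairs of groups, used together only in the interaction, all correlations were above 0 (0.17 to 0.76). The library with Y-linked RNA has the same number within each of these 2 pairs, 3 in wild-type saline and FAN1KO cisplatin and 1 in FAN1KO saline and wild-type cisplatin. It has different numbers in the 4 pairs compared. The part of this in the correlations was not tested. Since not every correlation was above 0.1, the numbers were not taken to pair the samples. The replicate block changed the counts of called members as given above and left 9, 0 and 7 in the other comparisons. With 3 mice in a group, the exact permutation test cannot go below 0.1.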
